A study of Mus musculus with 32 samples.

Results

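Carcinoma regions cut from the tumour core were set against carcinoma regions cut from the tumour border. The labels give 6 core libraries and 3 border libraries, 9 of the 32 libraries of the series, and every gene of the table was compared. Each library holds RNA from a laser-captured patch of a mammary tumour of a female mouse with the alleles MMTV-PyMT; R26-CBW; K8-CreERT2, taken when tumours had reached the largest volume allowed. The viral oncogene PyMT is driven by a mammary promoter. Cre, under the keratin 8 promoter, was switched on by 5 mg tamoxifen at 5 weeks of age, so that keratin 8 cells and their progeny carry a fluorescent colour. Both groups share genotype, treatment and stage, and no group without the oncogene or without tamoxifen enters the comparison. Patches were chosen by stage, place and colour, from fixed sections of 7 µm. Core regions are called here by their title numbers: core 6 (GFP), core 7 and 54 (YFP), and core 37, 38 and 53 (RFP). Border regions are border 8 and 55 (RFP) and border 39 (YFP). The series states 3 animals and the labels tie no region to one, so some of the 6 core regions share an animal. The p-values below treat regions as independent and may for that reason be too small. They may instead be too large if an animal gave both core and border regions, which the labels do not tell.

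The edge of an invasive mammary tumour lies against stroma: fibroblasts that make collagen, blood vessels and immune cells. The interior lies farther from vessels, and short oxygen there stabilises HIF transcription factors, which switch on genes such as Vegfa and Slc2a1. Markers of these neighbouring tissues, of hypoxia, of proliferation and of luminal cell state are therefore the genes usually read when core and border are set side by side.

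The 9 libraries held 4443497 to 19564392 counts and 13847 to 17667 detected genes. Mean totals were 9933850 ± 5176600 counts in core and 12376300 ± 6419000 in border (SD, n = 6 and 3; exact permutation p = 0.560, two-sided). Detected genes averaged 15863.5 ± 1278 in core and 15776.3 ± 1746.9 in border (SD; exact permutation p = 0.952). A single gene ID for which the annotation gives no symbol took 23.1% of counts in core and 26.5% in border on average (exact permutation p = 0.869). It reached 44.5% in core 53 and 53.6% in border 39. For many values that leaving out either library turned or strongly moved, the value without it is given too. Spearman correlations of expression between libraries had a median of 0.765 over 15 core pairs, 0.768 over 3 border pairs and 0.771 over 18 pairs of a core with a border region. As a description, then, a core region resembled a border region as closely as it resembled another core region.

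The labelled epithelial identity was visible in all 9 libraries. Krt8, the keratin of simple epithelia whose promoter drives the Cre, had 399 to 1462 CPM (counts scaled to libraries of equal effective size) in core, median 735, and 928, 501 and 437 CPM in border 8, 39 and 55. Its fitted log2 difference was 0.38, with a 95% interval of -0.48 to 1.23. Epcam, an adhesion protein of epithelial cells, had 334 to 994 CPM in core, median 472, and 572, 441 and 531 CPM in border, a log2 difference of 0.09 (95% interval -0.82 to 1.01). Cdh1, the cadherin that joins epithelial cells, averaged 156 ± 61.1 CPM in core and 155 ± 44.9 CPM in border (SD, n = 6 and 3). The values of the groups overlapped for all of these genes. Krt5 and Krt14, keratins of basal and myoepithelial cells, averaged 5.12 and 16.9 CPM in core and 7.52 and 28.3 CPM in border. Border 39 held most of this border signal, and without it the log2 differences of Krt5 and Krt14 turned to 1.84 and 2.70, in place of -0.54 and -0.75.

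No gene passed the test between core and border. Of 22676 genes tested with edgeR's quasi-likelihood F test (two-sided, Benjamini-Hochberg), 0 reached an adjusted p of 0.05 (0% called), and the smallest adjusted p was 0.589. Unadjusted, 1276 genes had p under 0.05 (5.63%), 550 higher and 726 lower in core. DESeq2's Wald test called 314 genes (1.38%) and limma voom with sample weights called 5 (0.022%). Core libraries all lay above border libraries for 115 genes (0.507%) and all below for 165 (0.728%). Of the 6891 genes that averaged at least 20 CPM, 3409 were higher and 3482 lower in core, and the median log2 difference was -0.01. Among these the groups separated with core above for 63 genes (0.914%) and with core below for 66 (0.958%). Over all genes tested that median was 0.15. The names below are those of smallest p in each direction that had at least 20 CPM in the higher group. None of them passed edgeR's test, so they are given as values.

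On the core side the gene of smallest p was Stc1 (gene ID 20855; GRCm38 chromosome 14, 69029289 to 69041401, protein coding), which encodes stanniocalcin 1, a secreted glycoprotein. It had 80.9, 1.36, 3.48, 56.3, 4.85 and 0.944 CPM in core 6, 7, 37, 38, 53 and 54, against 0.174, 0 and 0 CPM in border 8, 39 and 55. The groups did not overlap, but 2 of the 6 core libraries held most of the signal. The border libraries held 4 counts in all, and the pooled CPM ratio of core to border was 188 (95% interval 73.4 to 693, counting error only). The fitted log2 difference was 8.12 (SE 2.12, edgeR adjusted p = 0.600) and stayed between 7.24 and 10.89 when each library was left out in turn. DESeq2 gave it an adjusted p of 8.44e-05 and limma voom 0.407.

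Usp15, a deubiquitinase, had 15.9 to 129 CPM in core, median 70.3, against 6.48, 5.26 and 0.674 CPM in border 8, 39 and 55. Every core library was above every border library (log2 difference 4.15, SE 1.24, edgeR adjusted p = 0.781). Nup43, a nuclear pore component, had 6.80 to 84.5 CPM in core, median 18.6, against 0.435, 0.631 and 1.60 CPM in border (log2 difference 4.96, SE 1.83, from 4.22 without core 6 to 5.71 without border 55). Its groups did not overlap either. DESeq2 gave Usp15 an adjusted p of 0.000593 and Nup43 one of 0.0105, and limma voom gave 0.995 for both.

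Further genes whose core libraries all lay above the border libraries were Fundc2, Blnk and Dsp. Fundc2, a mitochondrial outer membrane protein, had 48.3 to 195 CPM in core and 29.0, 10.3 and 2.95 CPM in border (log2 difference 2.79, SE 1.07, or 3.88 without border 8). Blnk, an adaptor best known from B cell receptor signalling, had 37.9 to 97.1 CPM in core, median 64.1, and 13.96, 3.37 and 6.99 CPM in border (log2 difference 3.00, SE 1.21, or 3.65 without border 8). The genes of the T, NK and B cell list summed to between 1.06 and 703 CPM in core and to between 8.13 and 133 CPM in border, and their part in the Blnk values was not tested. Dsp, which encodes desmoplakin of the desmosome, had 9.02 to 203 CPM in core, median 25.5, and 8.27, 8.63 and 0.337 CPM in border (log2 difference 3.30, SE 1.41, or 2.26 without core 6).

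The other genes of this kind overlapped between the groups. They were the splicing kinase Clk1 (log2 difference 2.20), the immediate early transcription factor Fos (2.80), the tubulin ligase family member Ttll7 (3.54), Ankra2 (3.51), Mospd2 (3.11) and the metallothionein Mt2 (1.75). Mt2 rests on core 37, with 402 CPM against 29.7 to 110.5 CPM in the other core libraries, and its log2 difference was 0.76 without that library. Without border 8 the log2 differences of Clk1 and Mospd2 were 2.98 and 4.75, and without border 39 those of Ttll7 and Ankra2 were 4.40 and 4.18. That of Fos was 2.17 without core 54 and 3.44 without border 55. DESeq2 gave Ankra2 an adjusted p of 0.0209.

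**Figure D1:**
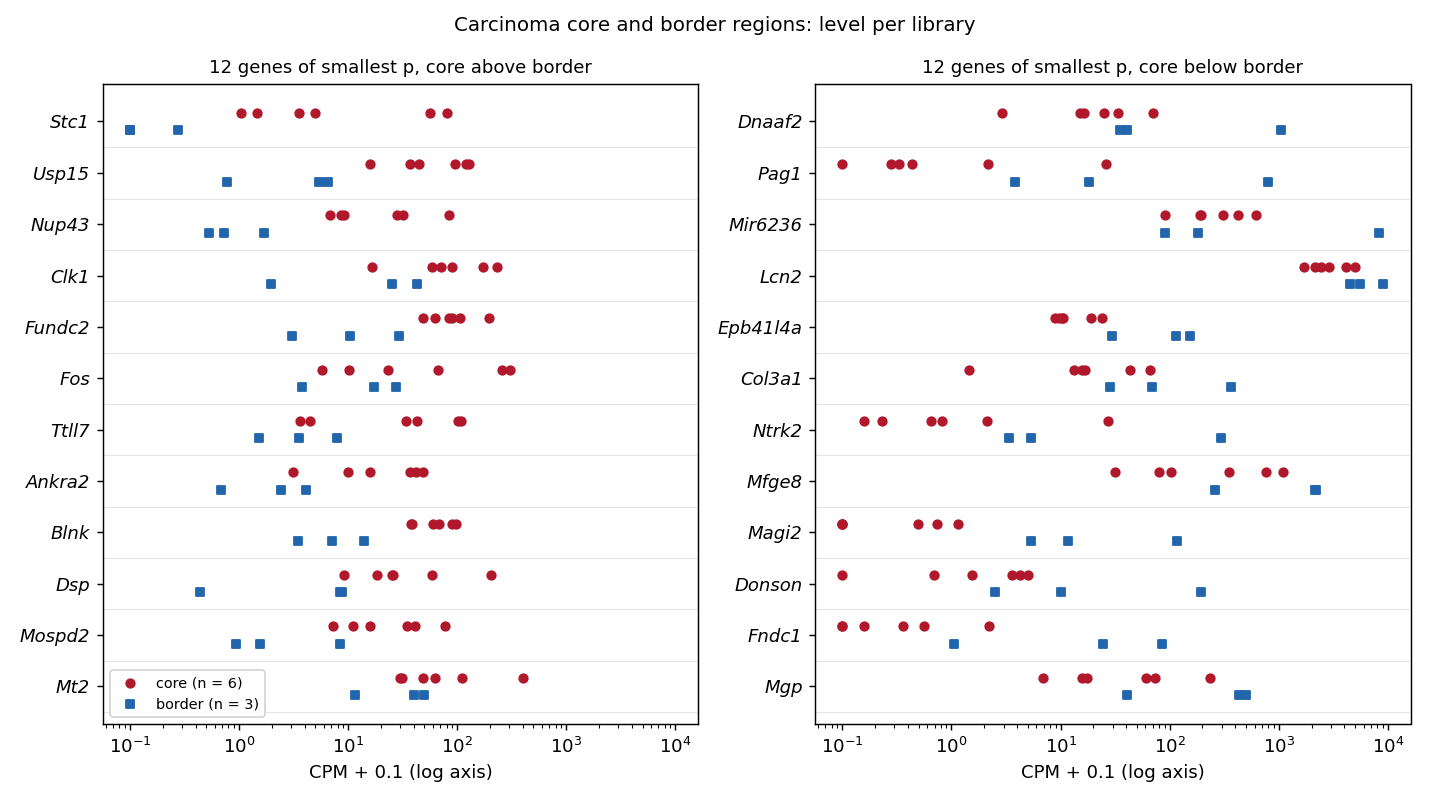
Each point is a library, with its CPM plus 0.1 on a log axis, for the 12 genes of smallest p above border (left panel) and below border (right panel). Red circles are the 6 core regions and blue squares the 3 border regions; Stc1 lies at or under 0.174 CPM in border, and single border points far to the right mark Dnaaf2, Pag1, Mir6236, Ntrk2 and Donson in border 39.

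On the border side, 5 of the 12 genes rested on border 39. Dnaaf2, a dynein assembly factor of cilia, had 2.79 to 69.7 CPM in core, against 35.1, 1058 and 40.2 CPM in border 8, 39 and 55. Its log2 difference of -3.80 was -0.41 without border 39; DESeq2 gave it an adjusted p of 0.00865. Pag1, a membrane adaptor that binds Csk, had 0 to 25.9 CPM in core and 3.74, 799 and 18.1 CPM in border (log2 difference -5.82, or -1.18 without border 39 and -8.86 without core 37; DESeq2 adjusted p = 0.0487). Ntrk2, the receptor TrkB, had 0.0590 to 27.03 CPM in core and 3.26, 297 and 5.22 CPM in border, and its log2 difference of -4.35 was 0.40 without border 39 and -7.18 without core 53. Donson, a replication fork protein, had a log2 difference of -4.80 that was -1.35 without the same library.

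Mir6236 was the only miRNA gene among them (GRCm38 chromosome 9, 110281287 to 110281409). The mature sequence that RefSeq (GRCm38.p6) places inside it is shown to identify it, with the seed, bases 2 to 8, in capitals. It runs from 110281353 to 110281371 on the plus strand.
mmu-miR-6236: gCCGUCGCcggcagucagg
Of its 19 bases, 15 are G or C. Libraries were primed on poly(A), so the counts do not measure the mature miRNA. They are reads assigned to this locus, and the treatment of multiply mapped reads is not given. It had 90.9 to 623 CPM in core, median 251, and 89.7, 8301 and 182 CPM in border 8, 39 and 55. Its log2 difference of -3.23 was 1.23 without border 39. The highest core value, 623 CPM, was that of core 53. Border 39 and core 53 are also the libraries in which the symbol-less gene ID took the largest share of counts, and its part in this value was not tested.

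Lcn2, the secreted iron-siderophore binder lipocalin 2, was the most abundant of the genes named for smallest p. It had 1713 to 5010 CPM in core, median 2658, against 4454, 5594 and 9114 CPM in border 8, 39 and 55. The groups overlapped only through core 54, at 5010 CPM. The log2 difference was -1.07 (SE 0.33, 95% interval -1.72 to -0.41, edgeR adjusted p = 0.781), and it lay between -1.27 and -0.72 with each library left out. Limma voom with sample weights gave -0.30, and the RFP libraries alone -1.59. S100a8, a neutrophil gene, averaged 10.8 ± 12.1 CPM in core and 30.6 ± 20.1 CPM in border (SD, n = 6 and 3). In the whole neutrophil list, to which Lcn2 also belongs, 5 of 12 genes were higher and 5 lower in core, and Retnlg and Camp were at 0 in all 9 libraries.

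Epb41l4a, a FERM domain protein, had 8.78 to 23.8 CPM in core, median 10.3, against 29.8, 155 and 113 CPM in border. Every core library lay below every border library (log2 difference -2.87, SE 0.88, edgeR adjusted p = 0.781; -2.35 without border 39; DESeq2 adjusted p = 0.0369). Magi2, a scaffold of cell junctions, had 0 to 1.06 CPM in core and 5.22, 118 and 11.7 CPM in border, again without overlap (log2 difference -6.96, SE 2.32; -4.50 without border 39). Fndc1, a fibronectin type III domain protein, had 0 to 2.11 CPM in core and 0.957, 24.6 and 85.8 CPM in border, with an overlap between core 38 and border 8 (log2 difference -6.26, or -7.90 without core 38 and -4.71 without border 55).

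The 3 remaining genes are of matrix and secretion. Mgp, matrix Gla protein, had 6.86 to 237 CPM in core and 40.4, 497 and 431 CPM in border (log2 difference -2.23, SE 0.76, or -3.21 without core 54). Mfge8, a milk fat globule protein, had 31.6 to 1095 CPM in core, median 225, and 258, 2178 and 2151 CPM in border (log2 difference -1.92, SE 0.63, or -2.52 without core 54). Col3a1, a fibrillar collagen of fibroblasts, had 1.34 to 66.1 CPM in core, median 16.1, and 28.2, 69.5 and 362 CPM in border (log2 difference -2.56, SE 0.81, edgeR adjusted p = 0.781; -0.91 without border 55). Core and border overlapped for all 3, with core 7 and core 54 above border 8.

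Fibroblast and matrix genes were the list with the lowest median. Of 18 genes, 17 were lower and 1 was higher in core. Their median log2 difference was -1.95, beside 0.15 over all genes tested. Of these members 0 passed edgeR's adjusted test and 6 had an unadjusted p under 0.05. Over all genes tested, 9428 of 22676 were lower and 5.63% had an unadjusted p under 0.05. Of the 10 members averaging at least 20 CPM, 0 were higher in core, beside 3409 of 6891 for all genes at that level. Col1a2 had 0.670 to 148 CPM in core, median 40.7, and 78.8, 107 and 1124 CPM in border (log2 difference -2.81, SE 1.01). Col1a1 had 4.58 to 216 CPM in core, median 40.8, and 60.2, 109 and 667 CPM in border (log2 difference -2.11, SE 0.89). Sparc, a collagen-binding matrix protein, averaged 94.1 ± 74.2 CPM in core and 332 ± 313 CPM in border (SD, n = 6 and 3; log2 difference -1.82, SE 0.69). Without border 55 the log2 differences of Col1a2, Col1a1 and Sparc were -0.58, -0.40 and -0.70.

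The border value of this list leans on border 55. Summed over the list, levels were 82.4 to 939.6 CPM in core, median 253, and 398, 846 and 4166.5 CPM in border 8, 39 and 55. Core 7 and core 54 both lay above border 8 and border 39. Without border 55, 14 of 18 genes were still lower and the median log2 difference was -0.56 beside 0.23 over all genes. With border 55 and without border 39 it was -2.20. In captured patches of many cells, fewer cells of a type and less RNA per cell cannot be told apart.

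Vim, the intermediate filament of mesenchymal cells, had 21.5 to 34.9 CPM in core, median 26.4, against 43.4, 73.9 and 155 CPM in border. Its groups did not overlap (log2 difference -1.73, 95% interval -3.80 to 0.33, edgeR adjusted p = 0.796; -1.10 without border 55). Tnc, a matrix glycoprotein of wound and tumour stroma, averaged 9.112 ± 9.003 CPM in core and 41.2 ± 26.4 CPM in border. In the epithelial-mesenchymal transition list 5 of 17 genes were higher and 11 lower in core, median -0.70, and without border 55 the median was 0.21. This list holds Vim, which fibroblasts express as well.

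Markers of other cells did not share one direction. For comparison, 12490 of 22676 genes tested were higher in core (median 0.15). For macrophages and antigen presentation 8 of 20 genes were higher in core (median -0.21), for endothelium 9 of 14 (0.25), for pericytes 3 of 7 (-0.14) and for T, NK and B cells 8 of 13 (0.45). Of the 13 macrophage and antigen presentation genes averaging at least 20 CPM, 3 were higher in core (-0.33). Pecam1, the endothelial adhesion molecule, averaged 3.88 ± 2.51 CPM in core and 2.19 ± 0.378 CPM in border. Plvap, of the same list, went the other way, with 0 to 12.2 CPM in core and 9.27, 11.4 and 45.7 CPM in border. Its log2 difference was -2.19, or -1.1 without border 55. The endothelial list was scarce, with 0 of 14 genes at a mean of 20 CPM. Its sums were 48.6 to 71.1 CPM in core and 67.9 to 96.3 CPM in border. Adgre1, the macrophage marker F4/80, averaged 6.06 ± 6.68 CPM in core and 21.3 ± 16.5 CPM in border. Hemoglobin genes ranged widely within each group: Hbb-bs had 0 to 355 CPM in core and 72.0, 0.421 and 302 CPM in border, and its log2 difference of -0.70 was 1.07 without border 55. For red blood cells 2 of 7 genes were higher in core (-0.68), for adipocytes 8 of 11 (1.57), for skeletal muscle 6 of 14 (0), for skin 7 of 11 (0.84), for peripheral nerve glia 6 of 8 (0.43) and for basal and myoepithelial cells 6 of 12 (-0.27). Most members of the adipocyte, muscle and skin lists were scarce: 1, 1 and 0 of them had a mean of 20 CPM, and Adipoq had 6 counts in the core libraries and 4 in the border libraries.

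**Figure D2:**
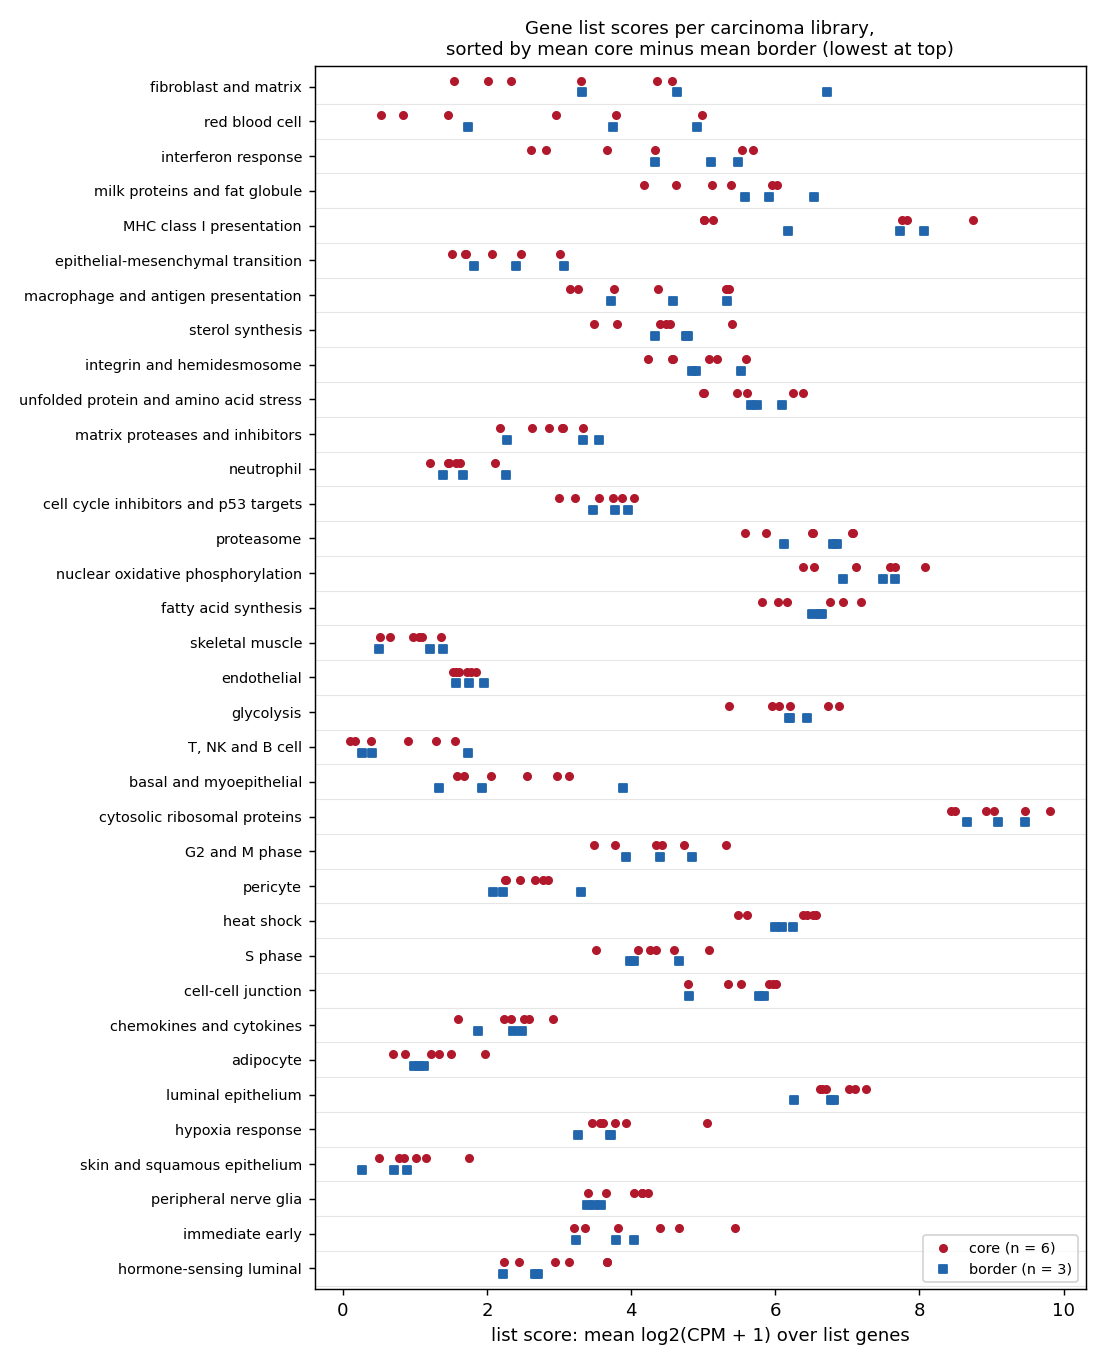
List scores, the mean of log2(CPM + 1) over the genes of a list, for each carcinoma library: red circles are the 6 core regions and blue squares the 3 border regions, with lists sorted by the mean of core minus the mean of border. The groups overlap in every list, and the fibroblast and matrix list, at the top, averages 3.02 in core and 4.89 in border.

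Hypoxia genes were more often higher than lower in core, with a small median. Of 21 genes, 17 were higher in core (median log2 difference 0.38), beside 12490 of 22676 (0.15) over all genes. Of these members 0 passed edgeR's adjusted test and 0 had an unadjusted p under 0.05. All 10 that averaged at least 20 CPM were higher in core, beside 3409 of 6891 for all genes at that level. Vegfa, the vascular growth factor, had 5.78 to 37.6 CPM in core, median 21.8, and 9.14, 2.32 and 4.72 CPM in border (log2 difference 2.03, 95% interval -0.71 to 4.77). Only core 53 fell within the border range. Mxi1, an antagonist of Myc, had 13.4 to 101 CPM in core and 13.1, 10.53 and 5.81 CPM in border, without overlap (log2 difference 2.04, 95% interval -0.73 to 4.81).

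Other hypoxia genes did not separate the groups. Slc2a1, the glucose transporter GLUT1, averaged 36.8 ± 18.2 CPM in core and 28.4 ± 15.8 CPM in border. Car9, a carbonic anhydrase widely used as a hypoxia marker, averaged 12.9 ± 7.03 CPM in core and 23.7 ± 28.2 CPM in border, with 56.3 CPM in border 55, and without that library its log2 difference was 0.80 in place of -0.87. The list's count rests in part on core 37, whose score of 5.05 stood above the other core scores of 3.46 to 3.93. Pdk1 at 100.0 CPM, Egln3 at 307 CPM and Ndrg1 at 254 CPM were all highest there. Without core 37, 12 of 21 genes were higher in core (median 0.22), and without border 8 the count was also 12. Glycolysis genes were 8 higher and 8 lower, and of the 12 averaging at least 20 CPM, 4 were higher (median -0.17). Ldha averaged 1080 ± 418 CPM in core and 1096 ± 1110.5 CPM in border. Without border 8, at 2368 CPM, its log2 difference was 1.23 in place of -0.02.

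Proliferation genes overlapped between the groups, with wide intervals. Mki67, expressed in cycling cells, had 51.2 to 222 CPM in core, median 94.5, and 212, 89.9 and 97.5 CPM in border (log2 difference -0.22, 95% interval -1.51 to 1.07). Top2a, a topoisomerase of dividing cells, averaged 97.9 ± 38.2 CPM in core and 99.5 ± 46.4 CPM in border (log2 difference -0.02, 95% interval -1.43 to 1.38). Of S phase genes 20 of 30 were higher in core (median 0.25) and of G2 and M phase genes 18 of 30 (0.13), with 0 at an unadjusted p under 0.05. Over all genes tested, 12490 of 22676 were higher (0.15). Cdkn1a, which encodes the cell cycle inhibitor p21, had 5.31 to 38.3 CPM in core, median 9.38, and 60.5, 23.2 and 194 CPM in border. Core 54 alone overlapped the border (log2 difference -2.70, 95% interval -4.71 to -0.69, edgeR adjusted p = 0.781; -1.56 without border 55). In its list of cell cycle inhibitors and p53 targets, 10 of 19 genes were higher in core. Of the 9 averaging at least 20 CPM, 3 were higher (median -0.52).

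Immediate early genes, which respond within minutes to growth factors, stress or tissue handling, were higher in core for 13 of 20 members (median 0.71), 3 of them at an unadjusted p under 0.05. Beside this, 12490 of 22676 genes tested were higher and 5.63% had an unadjusted p under 0.05. Fos had 5.69, 66.9, 10.2, 255, 23.1 and 308 CPM in core 6, 7, 37, 38, 53 and 54, and 3.70, 17.1 and 27.4 CPM in border. Nr4a1, a nuclear receptor, averaged 95.2 ± 99.1 CPM in core and 19.7 ± 18.5 CPM in border, and Dusp1, a MAP kinase phosphatase, 37.4 ± 34.4 CPM in core and 6.09 ± 9.32 CPM in border. The log2 difference of Nr4a1, 2.27, was 3.37 without border 8 and 1.57 without core 54, and that of Dusp1, 2.64, was 5.71 without border 39. Core 7, 38 and 54 were the 3 highest core libraries for Fos, Nr4a1 and Dusp1 alike. The other 3 lay within the border range for each of these genes.

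Luminal genes were slightly higher in core for 13 of 16 members (median 0.24), of which 0 had an unadjusted p under 0.05. Over all genes tested, 12490 of 22676 were higher. Without border 55 the luminal count was 8 of 16 (0.01), and in the RFP libraries alone 7 of 15 (-0.14). Elf5, the transcription factor of the milk-secreting lineage, was the member whose groups did not overlap, with 173 to 345 CPM in core, median 218, and 166, 135 and 118 CPM in border (log2 difference 0.77, 95% interval -0.27 to 1.81). Hormone-sensing genes were higher in core for 10 of 12 members (median 0.96), but 6 of 12 (-0.02) once colour was a term in the fit. Esr1, the oestrogen receptor, averaged 31.7 ± 30.5 CPM in core and 22.3 ± 10.6 CPM in border, and its log2 difference of 0.51 was -0.13 without core 6.

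Milk and fat globule genes were lower in core for 11 of 14 members (median -0.63), 3 of them at an unadjusted p under 0.05. Over all genes tested, 9428 of 22676 were lower and 5.63% had an unadjusted p under 0.05. Csn2, beta-casein, had 0 to 20.96 CPM in core, median 1.11, and 32.5, 40.8 and 19.5 CPM in border, with core 37 alone inside the border range (log2 difference -2.74, or -4.55 without core 37). The abundant Csn3, kappa-casein, went the other way, with 3041 to 11681 CPM in core and 3978, 4133 and 5018 CPM in border (log2 difference 0.55, 95% interval -0.18 to 1.28). Ltf, lactotransferrin, had 141 to 370 CPM in core and 283, 2022 and 165 CPM in border; its log2 difference of -1.72 was 0.20 without border 39.

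The remaining lists had medians between -0.41 and 0.52, beside 0.15 and 12490 of 22676 higher over all genes tested. Genes averaging at least 20 CPM had a median of -0.01, with 3409 of 6891 higher. At that level were 37 of 38 ribosomal protein genes and 20 of 20 oxidative phosphorylation genes. Of cytosolic ribosomal protein genes 22 of 38 were higher in core (median 0.04), of nuclear oxidative phosphorylation genes 11 of 20 (0.04), of proteasome genes 8 of 21 (-0.07), of heat shock genes 8 of 13 (0.03), and of unfolded protein and amino acid stress genes 8 of 18 (-0.08). For fatty acid synthesis the count was 6 of 13 (-0.10), for sterol synthesis 7 of 15 (-0.07), for cell-cell junctions 10 of 18 (0.04), and for integrins and hemidesmosomes 8 of 15 (0.10). Itgb4, the hemidesmosome integrin, had a log2 difference of -1.56 that was -0.45 without border 39. Matrix proteases and their inhibitors were higher for 6 of 18 genes (-0.41) and chemokines and cytokines for 13 of 20 (0.52).

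Interferon response genes were lower in core for 18 of 25 members (median -0.60), and 0 had an unadjusted p under 0.05. The share lower over all genes tested was 9428 of 22676 (median 0.15). Irf7, a transcription factor of the interferon response, had 306, 94.2, 69.1, 7.79, 36.5 and 195 CPM in core 6, 7, 37, 38, 53 and 54, and 284, 354 and 90.5 CPM in border. Without border 39 the split was 13 lower and 12 higher (median -0.18), and without both border 39 and core 53 the median was 0.06. MHC class I presentation genes were lower in core for 9 of 12 members (-0.19). Here 7 of 12 were higher without core 37, 7 of 12 without border 55 and 9 of 12 without border 39. The median over all genes tested was 0.12, 0.23 and 0.51 in those settings, and 0.35 without both border 39 and core 53.

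Among core regions both lists split by the labelled colour. This was seen after the values were known and is given without a test. H2-K1, which presents peptides to CD8 T cells, had 364, 317 and 187 CPM in the RFP core regions 37, 38 and 53, against 2985, 4000 and 6867 CPM in the GFP and YFP core regions 6, 7 and 54. Border RFP regions had 637 and 3970 CPM and the border YFP region 3427 CPM. B2m, the light chain of MHC class I, had 231, 128 and 96.4 CPM in the RFP core regions, against 1826, 2250 and 3587 CPM in the other core regions. MHC class I scores were 5.01 to 5.14 in RFP core and 7.75 to 8.75 in the other core regions, and interferon scores 2.61 to 3.67 and 4.33 to 5.69. The RFP border regions 8 and 55 had MHC class I scores of 6.18 and 7.74 and interferon scores of 5.11 and 4.34, above every RFP core region; their interferon scores lay within the range of the GFP and YFP core regions. The T, NK and B cell score was also lower, at 0.0960 to 0.389 in RFP core against 0.902 to 1.55 in the other core regions, and its part in the MHC values was not tested. In all, 5 of 35 lists lay below and 2 above the other core regions, and 28 overlapped. The matching share over all genes was not computed, so these counts have no background beside them. The lists are not independent, since Psmb8 and Psmb9 belong to both the interferon and the MHC class I list. Among RFP libraries alone all 12 MHC class I genes were lower in core than in border (median log2 difference -1.65), and 22 of 24 interferon genes (-1.76). With 3 RFP core regions that may share a clone or an animal, colour, clone and animal cannot be told apart.

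**Figure D3:**
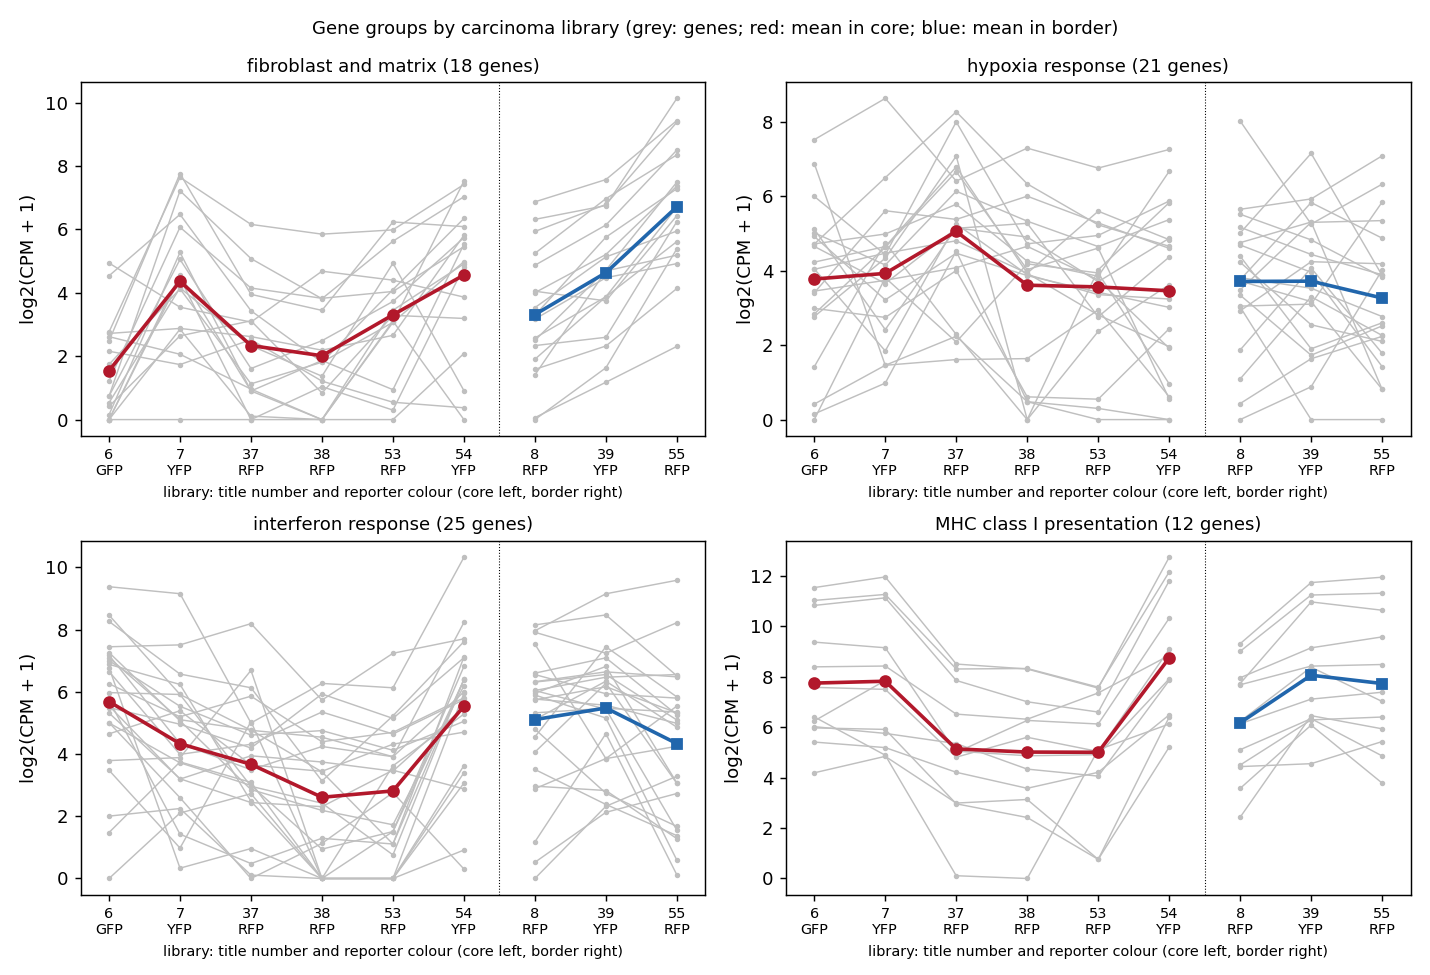
Levels as log2(CPM + 1) in each carcinoma library, core regions left of the dotted line and border regions right of it, labelled by title number and reporter colour. Grey lines are genes and coloured lines their mean; fibroblast genes peak in border 55, hypoxia genes in core 37, and MHC class I genes are low in the RFP core regions 37, 38 and 53.

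The same comparison in adenoma, an earlier stage, has 3 core and 3 border regions and shares no library with carcinoma. In adenoma 0 genes passed edgeR's adjusted test (0% called; smallest adjusted p 0.103), while 2143 (9.45%) had p under 0.05 before adjustment. The difference between the carcinoma and the adenoma contrasts was tested directly: in edgeR 0 genes passed (0% called; smallest adjusted p 0.0889), and 1988 (8.77%) had p under 0.05 before adjustment. In adenoma itself DESeq2 called 1133 of 22676 genes and limma voom 35. For the difference of the contrasts DESeq2 called 690 of 22676 genes and limma voom 1. How many of these calls rest on a single library or on a group without counts was not examined. Across the same 6891 genes, the log2 differences of carcinoma and adenoma had a Spearman rho of 0.0389, and 51.1% had the same sign. These values are across genes, which are not independent.

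Of the 24 genes named for smallest p in carcinoma, some had the same direction in adenoma and others the opposite. Stc1 averaged 1.35 CPM in adenoma core and 0.0369 CPM in adenoma border, Dsp 114 and 11.1 CPM, and Ttll7 47.7 and 4.72 CPM. Ttll7 overlapped, with 18.9, 10.6 and 113 CPM in adenoma core 24, 25 and 51 and 11.6, 2.54 and 0 CPM in border. Dsp was also highest in adenoma 51, at 204 CPM. In that library the symbol-less gene ID took 57.5% of counts and 10769 genes were detected. Mfge8 averaged 50.5 CPM in adenoma core and 695 CPM in adenoma border, a log2 difference of -3.78 (edgeR adjusted p = 0.266), and Mgp 18.2 and 209 CPM. Mt2, higher in carcinoma core, averaged 117 CPM in adenoma core and 401 CPM in adenoma border (difference of the contrasts, edgeR adjusted p = 0.511). Lcn2 averaged 3012 CPM in adenoma core and 2865 CPM in adenoma border (difference of the contrasts, edgeR adjusted p = 0.529). The mean fibroblast and matrix score was 3.02 in core and 4.89 in border of carcinoma, and 2.22 in core and 3.19 in border of adenoma. The adenoma border values of its leading genes leaned on adenoma 36. In adenoma border 47, 48 and 36, Col1a2 had 41.9, 32.1 and 464 CPM and Col3a1 37.1, 17.7 and 149 CPM. Sparc had 34.3, 52.4 and 221.5 CPM there, and 66.3, 165 and 12.5 CPM in adenoma core 24, 25 and 51.

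**Figure D4:**
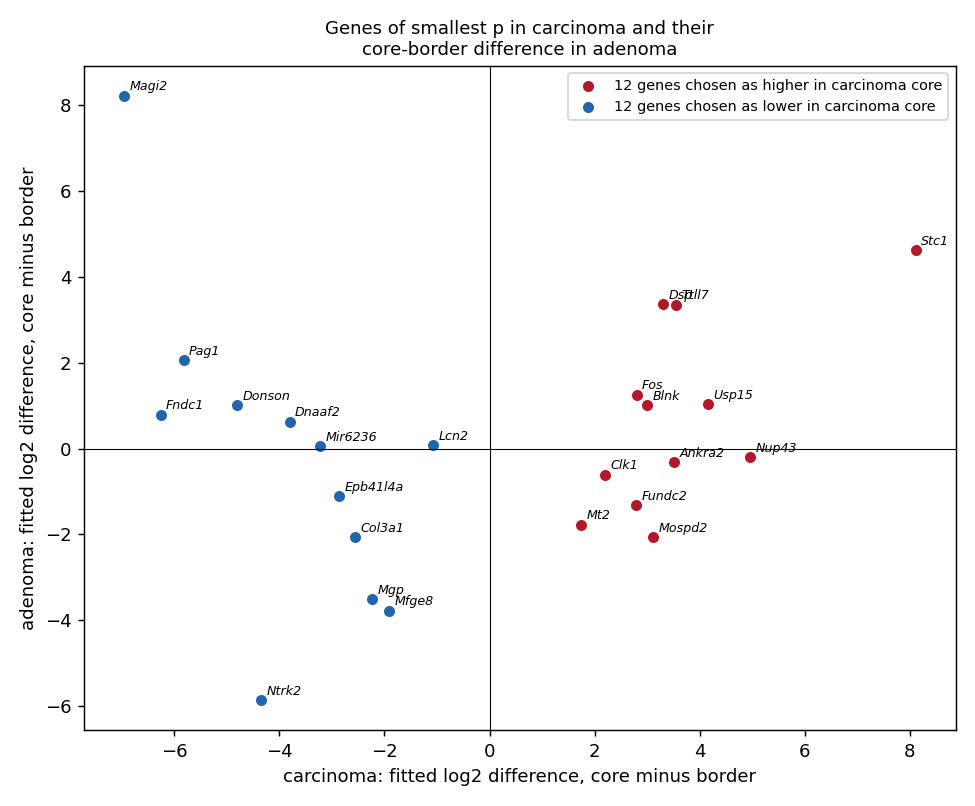
Fitted log2 difference of core minus border in carcinoma (x axis) and in adenoma (y axis) for the 24 genes of smallest p in carcinoma, red where higher and blue where lower in carcinoma core. Stc1, Dsp and Ttll7 lie high and Mfge8, Mgp and Ntrk2 low in both stages; Magi2 lies at opposite ends, with all adenoma border libraries at 0, so that its adenoma value is no bound.

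The 314 genes that DESeq2 called include Stc1, Usp15, Nup43, Ankra2, Epb41l4a, Dnaaf2 and Pag1, but most were scarce. Of them 263 were higher and 51 lower in core, and 299 had no counts in the other group. In 283 a single library held over 50% of the summed CPM, most often core 53, which led in 81. Only 12 had 10 counts in 75% of the libraries of the higher group, and in 7 the groups did not overlap. The 5 genes that limma voom called were all lower in core: Actn4, Oaf, Syt3, Tcn2 and Wfdc18. Actn4, the actin crosslinker alpha-actinin 4, averaged 1323 ± 613 CPM in core and 2160 ± 1035 CPM in border (SD, n = 6 and 3; limma voom adjusted p = 0.00604, edgeR adjusted p = 0.781). Wfdc18, a secreted whey acidic protein family member, averaged 5794 ± 3410 CPM in core and 6439 ± 4043 CPM in border, with an edgeR adjusted p of 1. Syt3, a synaptotagmin, had 0 to 0.693 CPM in core and 3.78, 7.37 and 15.5 CPM in border, and Oaf 0 to 0.767 CPM in core and 6.35, 0.842 and 14.5 CPM in border. Tcn2, which carries vitamin B12, averaged 508 ± 225 CPM in core and 934 ± 612 CPM in border.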

How the data were processed

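RNA from 32 laser-captured regions was amplified with oligo-dT priming, Geo-seq and Smart-seq2 chemistry and made into Nextera XT libraries, per the labels' protocols, which add that regions of best cDNA quality were sequenced. The deposited values are raw counts for each gene ID, not normalized. Reads were aligned with STAR to mm10, per the submitters' processing notes; the labels name QuasR for the table, but no strand setting or treatment of multiply mapped reads, so reads of overlapping or near-identical genes (MHC class I, hemoglobin) may be shared. Reads carry no molecular identifiers, so intervals on counts cover counting error only. Symbols and positions came from RefSeq GRCm38.p6, which held 24374 of 24454 IDs and not the other 80.

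Groups follow the labelled stage and place. Counts were filtered with filterByExpr on the group (22676 genes), scaled by TMM and fitted in edgeR (quasi-likelihood) with 1 coefficient per group and all 32 libraries sharing the dispersion (common dispersion 2.32). The contrast core minus border was two-sided, with a threshold of 0.05 on Benjamini-Hochberg p-values. SE is the absolute log2 difference over the root of F, and 95% intervals use the fit's degrees of freedom. CPM uses TMM effective library sizes. Library measures were compared by exact permutation over 84 splits. Software was R 4.3.3 with edgeR 4.0.16, DESeq2 1.42.0 and limma 3.58.1; DESeq2 left 2404 adjusted p-values as NA. The steps were tested on simulated data.

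Named genes were up to 12 each way of largest difference among those that passed, filled up by smallest p, with 20 CPM on average in the group with more, where 75% of libraries needed 10 counts; predicted and unnamed genes (1 higher, 2 lower) were passed over. In each of 35 gene lists up to 3 members of smallest p at 20 CPM were eligible, beside a fixed set. The genes called by limma voom, Irf7, B2m, Pdk1, Egln3 and Ndrg1, and the split by colour, were singled out once their values were known. The members and lists were chosen with earlier results of these data known. Trac, Ighm, Igkc and Flg were not used here. The values of 1 gene are not reported here. Alternatives covered scaling, tool, filter, samples in the fit, colour, title numbers, detected genes, the most abundant ID and each library left out.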

Additional observations from a re-analysis of the deposited data

Results flagged for a closer look

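In 173 sets of 6 core values, of named genes, list scores and library measures, 14 had a core library far from the other 5 by Dixon's criterion. Chance marks about 1 in 20 such sets, and genes of 1 library are not independent. Values are log2(CPM + 1) unless stated.

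Core 53 stood apart most often: Ntrk2 was high at 4.81, next value 1.59, while Psmb4, a proteasome subunit, was low at 5.25 and Cdh1 low at 5.66. In the same library the symbol-less gene ID took 44.5% of counts, next value 24.9%, and its part in these values was not tested. Core 6 was low in Sparc at 2.77 and in Mcam at 0.42, and high in Adm, the hypoxia-induced peptide adrenomedullin, at 6.88, next value 2.24. Without core 6 the log2 difference of Adm was -0.96 in place of 3.09. Core 37 was high in Pag1 at 4.75 and in the hypoxia score at 5.05. Without core 37, the log2 difference of Pag1 was -8.86 with an edgeR adjusted p of 0.0254. Core 7 was high in the ribosomal protein gene Rpl14 at 11.74 and in the T cell gene Cd3e at 1.79. Core 38 was high in Fndc1 at 1.64 and in Adipoq at 0.84, the only core library with counts of it. Core 54 was low in Krt14 at 0.083, next value 3.61, and without it the log2 difference of Krt14 was -0.48 in place of -0.75; without border 39 it was 2.70.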

How the results depend on the processing

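No paired analysis was possible because the labels give core and border regions no shared replicate number and do not say what the title numbers stand for. The numbers fall into 3 runs of 2 core regions and 1 border region, and a fit with the run as a term called 0 of 14885 genes (431 with p under 0.05 before adjustment). Neighbouring title numbers did not deviate together (median r of -0.0095 for core with border, 0.013 for other pairs).

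The count of genes past an adjusted p of 0.05 in carcinoma was 0 under the other edgeR scalings, filters, covariates and sample sets, 314 with DESeq2 and 5 with limma voom. With each library left out in turn it ran from 0 to 1: 2900052N01Rik without core 6 (adjusted p 0.0376) and Pag1 without core 37. For adenoma the count was 1133 with DESeq2, 35 with limma voom and 2 without a filter on low counts. For the difference of the contrasts it was 690 with DESeq2, 1 with limma voom (Megf10), 4 without a filter, and 0 to 1 with a library left out (Cpe without core 54). Lists with a median above that of all genes numbered 11 of 35, 17 with colour as a term, and 9 to 20 with a library left out; without core 53 the number was 19 and without core 38 it was 20. The difference in total count ran from -5022420 to 1151570 with a library left out, positive without border 8. The difference in detected genes ran from -756 to 988, negative without core 37, 38, 53 or border 55. The difference in the share of the most abundant ID ran from -11.1 to 10.3 percentage points, positive without border 39. The cause of these changes was not tested.

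The median log2 difference of all genes ran from 0.06 to 0.51, the highest without border 39, so list medians are to be read beside it. In the main fit it was 0.15 over all genes but -0.01 over genes averaging at least 20 CPM. Lists of abundant genes are to be read beside the latter as well. With 3 border regions, 1 library can set a value, and intervals of several log2 units mean that large differences may not be detectable at this depth and spread. Leaving out border 39 with core 53, or the 3 libraries of the series with the fewest detected genes, was chosen after seeing the data.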
